A study of Mus musculus with 9 samples.

Results

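Undifferentiated mouse embryonic stem cells (mESCs) at day 0 were compared with the non-silencing hairpin control (Nons) at day 4 of differentiation, 2 of the 9 libraries of the series, by percent GpC methylation in consecutive windows of the genome. All windows of chromosomes 1 to 19 and X with a value in both libraries were used, 832233 of 833044, of which 789083 were autosomal and 43150 lay on the X. Both libraries came from female F1 mESCs of FVB/NJ dams and CAST/EiJ sires, with the reads of both parental alleles merged. Day 0 cells had been expanded in 2i, and day 4 cells had been moved into DME HiHi medium, transduced with the Nons hairpin at day 2 and selected with puromycin from day 3. The days of differentiation and the viral handling therefore cannot be told apart. The differentiation was undirected, so the day 4 library can hold several cell states, and expression was not measured in these libraries. There was 1 library for each condition, so no difference below has a replicate check and no p-value was computed. The number of reads behind each window is unknown.

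NOMe-seq treats fixed nuclei with a GpC methyltransferase, which can reach cytosines in GpC dinucleotides where neither nucleosomes nor other bound proteins cover the DNA. A higher percent GpC methylation thus stands for more accessible chromatin. mESCs in 2i sit in the naive pluripotent state, which rests on factors such as Esrrb, Tfcp2l1, Klf4 and Nanog. When 2i is withdrawn they pass through a formative state, marked by Otx2, Pou3f1, Fgf5 and the de novo DNA methyltransferases, before the germ layers appear.

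Each promoter below is the deposited window that holds the 5′ end of a gene, and the window is longer than the core promoter. To show what the enzyme can mark, the 300 bases around the start are given for 6 genes whose values are described further on. They were chosen as promoters lying wholly within their window, for 3 pluripotency genes, 1 formative gene, the largest rise among protein-coding promoters and a p53 target. The sequences are RefSeq's for GRCm38.p6, most of each lying before the start, 5′ to 3′ on the strand of the gene. Capitals mark each GpC followed by A, C or T on that strand (GCA, GCC and GCT, which do not overlap), since GpC followed by G cannot be told from CpG methylation. Of 32851 promoters of this length, 99.99% held at least 1 such site, with a median of 17.
Pou5f1 (chr17:35505782-35506081, plus strand, 13 sites): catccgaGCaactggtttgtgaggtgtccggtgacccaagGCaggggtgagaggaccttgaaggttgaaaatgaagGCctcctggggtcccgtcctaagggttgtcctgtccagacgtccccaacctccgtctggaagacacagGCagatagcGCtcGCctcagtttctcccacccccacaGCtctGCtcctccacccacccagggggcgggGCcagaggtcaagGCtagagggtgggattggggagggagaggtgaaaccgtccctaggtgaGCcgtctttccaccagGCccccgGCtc
Esrrb (chr12:86360867-86361166, plus strand, 18 sites): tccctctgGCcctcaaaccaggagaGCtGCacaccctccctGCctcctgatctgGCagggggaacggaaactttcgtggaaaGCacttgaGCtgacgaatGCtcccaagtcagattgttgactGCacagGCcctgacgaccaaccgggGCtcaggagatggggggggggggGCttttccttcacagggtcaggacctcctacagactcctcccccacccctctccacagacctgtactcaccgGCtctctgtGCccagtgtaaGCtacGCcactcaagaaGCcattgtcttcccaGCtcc
Zfp42 (chr8:43306960-43307259, minus strand, 17 sites): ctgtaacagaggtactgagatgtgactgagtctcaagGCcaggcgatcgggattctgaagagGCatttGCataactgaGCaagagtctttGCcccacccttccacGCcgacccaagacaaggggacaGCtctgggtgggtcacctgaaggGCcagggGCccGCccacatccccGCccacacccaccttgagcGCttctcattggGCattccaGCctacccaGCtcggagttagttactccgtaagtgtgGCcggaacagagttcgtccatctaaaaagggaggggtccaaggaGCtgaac
Sfrp2 (chr3:83766071-83766370, plus strand, 29 sites): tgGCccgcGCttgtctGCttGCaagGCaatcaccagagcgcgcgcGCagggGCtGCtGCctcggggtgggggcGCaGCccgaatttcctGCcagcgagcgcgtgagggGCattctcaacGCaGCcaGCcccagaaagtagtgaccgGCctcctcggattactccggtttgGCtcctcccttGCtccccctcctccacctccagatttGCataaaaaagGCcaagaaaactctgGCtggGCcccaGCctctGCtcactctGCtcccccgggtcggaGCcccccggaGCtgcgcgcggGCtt
Tspan17 (chr13:54789155-54789454, plus strand, 17 sites): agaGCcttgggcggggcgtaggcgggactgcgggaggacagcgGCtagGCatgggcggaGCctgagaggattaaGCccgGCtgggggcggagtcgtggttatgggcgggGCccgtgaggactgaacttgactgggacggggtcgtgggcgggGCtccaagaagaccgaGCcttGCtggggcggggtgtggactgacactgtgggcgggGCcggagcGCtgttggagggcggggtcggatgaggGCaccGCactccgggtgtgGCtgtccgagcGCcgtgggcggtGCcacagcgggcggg
Gadd45a (chr6:67037358-67037657, minus strand, 24 sites): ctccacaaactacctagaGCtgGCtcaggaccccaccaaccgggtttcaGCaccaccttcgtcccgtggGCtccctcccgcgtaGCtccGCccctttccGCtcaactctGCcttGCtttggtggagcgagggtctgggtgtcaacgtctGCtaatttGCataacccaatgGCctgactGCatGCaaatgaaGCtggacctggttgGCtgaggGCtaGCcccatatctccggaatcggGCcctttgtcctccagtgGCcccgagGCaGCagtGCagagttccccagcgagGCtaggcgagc

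The Nons day 4 library was higher than the day 0 library across the whole genome. The autosomal median was 11.3% at day 0 and 13.95% at Nons day 4, a difference of 2.66 percentage points, and 63.7% of autosomal windows were higher at day 4. The 4 mitochondrial windows, whose DNA carries no nucleosomes, moved the same way between these 2 libraries, from a mean of 83.5% to 86.8%. Their means were 81.7%, 79.1% and 74.3% at Nons days 5 to 7. With knockdown of Smarcc1 they were 85.2%, 81.6%, 81.5% and 73.6% at days 4 to 7. The autosomal median was highest at Nons day 5, at 21.2%, so the mitochondrial and autosomal levels did not share their order over the 9 libraries. How much of the shift came from the assay was not tested. Each library was therefore centred on its autosomal median, and the centred difference (day 4 minus day 0, in percentage points) describes what moved beyond the shift. On that scale the X differed by 0.06 points, within the range of the 19 autosomes, which ran from -0.14 to 0.19. Its place was the 12th from the lowest of the 20 chromosomes.

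Single windows were noisy. The centred difference had an SD of 8.07 points over autosomal windows, with a median window length of 2808 bases, and the Pearson correlation of the 2 libraries over these windows was 0.15. The day 0 library was the more scattered, with 1.45% of windows at 0% against 0.03% at Nons day 4. A centred difference of 10 points or more was taken as a call by size. By that measure 9.17% of autosomal windows rose and 10.5% fell, which is the background for windows over the whole genome.

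In percentage points, promoter windows were higher at Nons day 4 beyond the library-wide shift, and more so where the start was rich in CpG than where it was poor. The 30068 autosomal promoter windows went from a median of 13.8% to 17.3%, a centred difference of 0.80 points, against -0.02 points for the 759015 other autosomal windows. The excess of 0.81 points had an SD of 0.35 over the 19 autosomes and was above 0 on 19 of them. In proportion it was small, with a ratio of the day 4 to the day 0 median of 1.26 for promoters and 1.24 for other windows. On a log2 scale the excess was 0.02, below its SD over autosomes of 0.03. In the Smarcc1 knockdown at day 4 the centred differences from day 0 were 0.08 points for promoters and 0.06 points for other windows. Over autosomes and X together, 16.7% of the 31103 promoter windows rose by 10 points or more and 13.2% fell by as much, so calls in both directions were more frequent at promoters than elsewhere.

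Promoters were split by the CpG content of the 1 kb around the start. CpG-rich promoters (7915 windows), which mostly belong to widely expressed and developmental genes, went from 19.6% to 24.4%, a centred difference of 2.10 points. Promoters of intermediate CpG content (5188 windows) went from 16.1% to 20.97%, a centred difference of 1.88 points. CpG-poor promoters (16965 windows), typical of tissue-restricted genes, went from 11.6% to 14.4%, a centred difference of 0.16 points. The CpG-rich class exceeded the CpG-poor class by 1.94 points, with an SD of 0.71 over autosomes, and did so on 19 of 19. The excess was 0.65 points (SD 0.75) when a promoter was a window centred within 1 kb of the start, and 0.61 points with neighbouring windows averaged. For windows that hold the start, the difference in class held for points and for ranks but not for proportions. In points it was below its SD over autosomes for windows centred within 1 kb of the start. In percentile ranks the medians were 2.74 for CpG-rich, 4.99 for intermediate and 1.00 for CpG-poor promoters. The ratio of the day 4 to the day 0 median was 1.25 for CpG-rich promoters and 1.24 for CpG-poor promoters, against 1.24 for all autosomal windows, so that on a log2 scale the CpG-rich excess was 0.01. Intermediate promoters had a ratio of 1.30.

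Promoters of protein-coding genes had a centred difference of 1.15 points and those of long non-coding RNAs 0.27 points. Within a CpG class the types were closer. CpG-rich promoters had 2.14 points for protein-coding genes and 1.87 points for non-coding RNAs, and intermediate ones 1.97 and 1.67 points. CpG-poor promoters had 0.31 and 0.07 points. Elsewhere in the genome the differences were small, namely -0.06 points in windows over coding exons, -0.17 points in introns and 0.10 points between genes.

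**Figure D1:**
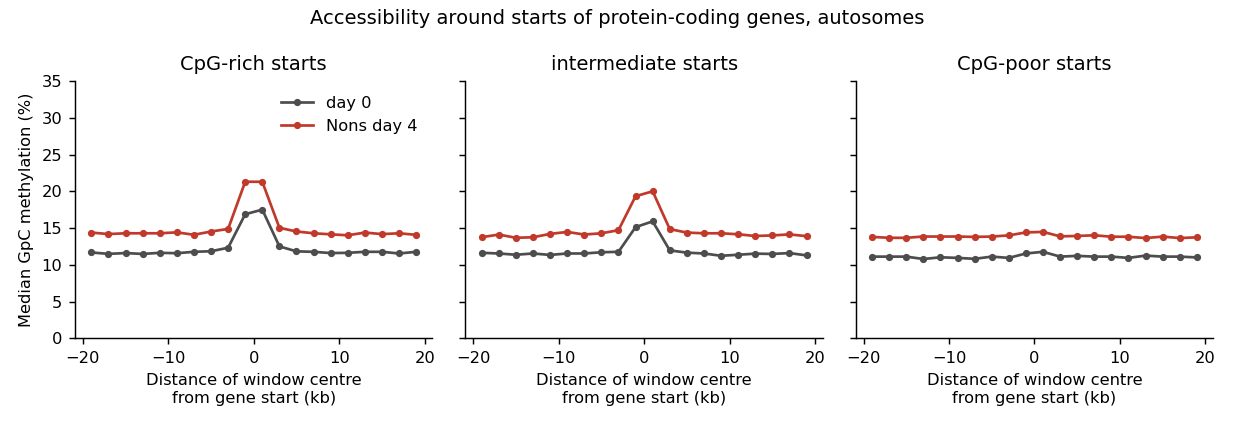
Median GpC methylation (percent, vertical axis) of autosomal windows by the distance of the window's centre from the nearest start of a protein-coding gene (kb, horizontal axis, steps of 2 kb), for day 0 (grey) and Nons day 4 (red), with starts split by CpG class. The red line is above the grey line at every distance, and the gap is widest in the steps next to CpG-rich and intermediate starts.

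The gain was local to the start. In windows centred within the 2 kb upstream of CpG-rich starts the medians were 16.9% at day 0 and 21.3% at Nons day 4, with a centred difference of 1.5 points, and in the 2 kb downstream the centred difference was 0.98 points. From 2 to 4 kb the centred differences were -0.12 points upstream and -0.23 points downstream. Around intermediate starts the same steps gave 1.34 and 1.13 points next to the start, and 0.39 and 0.01 points beyond it. Around CpG-poor starts no step next to the start exceeded 0.27 points.

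Because CpG-rich promoters are also the most accessible windows, windows were grouped by their level in the other 7 libraries, which neither side of the comparison used. Windows away from promoters moved little up to the 90th percentile of that level, with -0.21 points in the lowest 10% and 0.13 points between the 70th and 90th percentiles. In the top 1% they had a centred difference of 2.06 points (4012 windows). In the same top 1%, CpG-rich promoters had 2.72 points, intermediate promoters 2.67 points and CpG-poor promoters 1.44 points. Between the 70th and 90th percentiles, CpG-rich promoters had 1.62 points and intermediate promoters 1.66 points, against 0.16 points for CpG-poor promoters. Between the 95th and 99th percentiles CpG-rich promoters had 2.14 points and CpG-poor promoters 1.46 points, but between the 90th and 95th the order was reversed, with 0.97 points for CpG-rich and 1.19 points for CpG-poor promoters. At matched accessibility the CpG-rich excess thus did not keep its sign in points, and the ratio of medians lay between 1.23 and 1.38 in all of these groups from the 70th percentile upward.

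**Figure D2:**
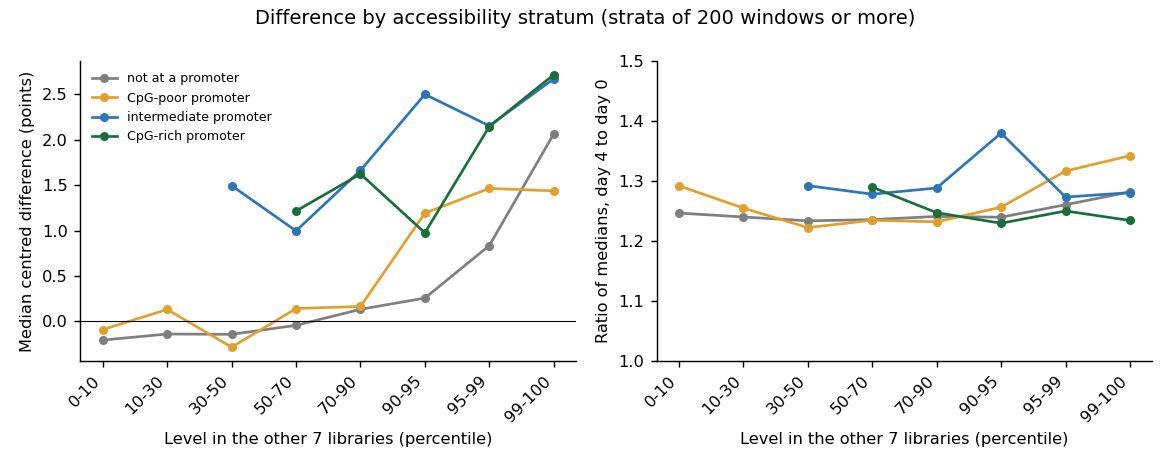
Left, median centred difference (points), and right, ratio of the Nons day 4 to the day 0 median, for autosomal windows grouped by their level in the other 7 libraries (percentile groups, horizontal axis), with promoters by CpG class and all other windows in grey. Groups under 200 windows are not drawn. In points the lines rise with the level, to 2.72 points for CpG-rich promoters in the top 1%, while the ratios show no such rise for CpG-rich promoters.

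The same promoters can be set beside the other days, with the caution that every such difference uses the 1 day 0 library. For CpG-rich promoters the centred difference from day 0 was 2.10 points at Nons day 4, 7.06 points at Nons day 5, 0.27 points at Nons day 6 and -2.14 points at Nons day 7. The Smarcc1 knockdown depletes a core subunit of the BAF remodelling complex. Its libraries gave 0.10, 2.97, 0.91 and -1.53 points on days 4 to 7 for the same promoters. The autosomal medians were 13.95%, 21.2%, 10.3% and 6.41% at Nons days 4 to 7, and 11.3% at day 0. In the knockdown they were 11.1%, 20.2%, 11.9% and 7.14%. Within either set of days, the differences in points followed the order of these medians. How far the differences came from the level of each library was not tested. CpG-poor promoters stayed between 0.15 and 0.29 points at the 4 Nons days.

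Base composition moved with the differences as well. Over 10 equal groups of autosomal windows by GC content, the centred difference was 0.31 points in the most AT-rich group, went down to -0.23 points in group 8 and was 0.32 points in the most GC-rich group, where 13.4% of windows were promoters. Without promoters the most GC-rich group had 0.18 points. When other windows were standardised to the GC content of promoters the promoter excess was 0.93 points.

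Among the pluripotency genes, single promoter windows moved in both directions. Pou5f1, which encodes Oct4, went from 23.6% at day 0 to 44.9% at Nons day 4, a centred difference of 18.6 points, and stood at 34.5% in the Smarcc1 knockdown at day 4. Tfcp2l1, a naive transcription factor, went from 34.1% to 15.04%, a centred difference of -21.7 points, and was at 13.5% in the knockdown at day 4. Zfp42 (Rex1), a reporter gene of the naive state, went from 32.1% to 20.7% (-14.05 points), but was at 34.7% in the knockdown at day 4. The 2 windows that hold Pou5f1 and Tfcp2l1 thus differed from day 0 in the same direction in both day 4 libraries, and that of Zfp42 did not. Both differences of a window use the same day 0 value. Averaged with the neighbouring windows, the centred differences at Nons day 4 were -4.01 points for Pou5f1, -6.59 points for Tfcp2l1 and -4.34 points for Zfp42. The rise at Pou5f1 was thus limited to its 1 window.

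Among the other naive factors, Esrrb went from 7.41% to 18.2% (8.11 points) and Dppa3, a maternal factor that guards DNA hypomethylation, from 17.0% to 29.3% (9.64 points). Sox2 went from 29.2% to 34.9% (3.11 points), Klf4 from 22.9% to 23.7% (-1.84 points) and Nanog from 24.2% to 21.1% (-5.80 points). Of the 23 promoter windows of the naive list, 5 rose and 5 fell by 10 points or more. The largest of these were Klf2 (11.1% to 38.0%, 24.3 points), Pou5f1, Tfcp2l1 and Nr5a2, an orphan nuclear receptor (18.3% to 4.71%, -16.3 points). The list's median was 3.75 points against 0.81 points for all promoter windows. Its ratio of medians was 1.05 against 1.26 for all promoters, and its median change in percentile rank was 1.37 against 2.45. The share of all promoters past 10 points, 16.7% upwards and 13.2% downwards, is the background for this and every later list. In CpG-rich promoters the shares were 26.8% and 17.7%. That class made up 78.9% of the formative and primed windows, 78.3% of the 2i and LIF windows and 77.8% of the neuroectoderm windows below. The naive median was 0.76 points when each window was averaged with its neighbours.

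Otx2, the homeobox factor that drives the formative state, was at 0% at day 0 and 20.1% at Nons day 4, and at 21.7% in the knockdown at day 4. Its centred difference was 17.5 points. Fgf5, the growth factor of the postimplantation epiblast, went from 13.0% to 22.8% (7.14 points), Pou3f1 (Oct6) from 27.1% to 34.9% (5.10 points) and Dnmt3b, a de novo DNA methyltransferase, from 28.3% to 29.1% (-1.85 points). Of the 19 formative and primed promoters, 6 rose and 4 fell past 10 points, with Etv4 (5.88% to 40%) and the Wnt antagonist Sfrp2 (1.82% to 23.8%) the largest rises, and Foxd3 (90.9% to 50.7%) and Sox4 (31.9% to 20.1%) the largest falls. The median was 2.67 points, and 4.24 points when averaged with the neighbouring windows.

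Because 1 window carries so much noise, the mean over each gene with 10 kb on either side was also taken, a measure chosen after seeing the data. Its value is given as a centred level, the mean minus the library's autosomal median, and the error is the SE over windows, which covers the scatter along the gene in these libraries only. Over 21615 protein-coding genes the median difference of these locus means was -0.12 points, and 47.6% were above 0.

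Several naive loci were lower at Nons day 4 and others higher, and the members named here were chosen after their values were seen. Esrrb had a centred level of 5.58 points at day 0 and 2.34 points at Nons day 4, a difference of -3.24 ± 1.16 points (SE, 82 windows). The other libraries lay at 1.81, 2.02 and -0.28 points at Nons days 5 to 7, and at 2.19, 1.95, 1.68 and 1.91 points in the knockdown at days 4 to 7. All 8 lay below day 0 at this gene, while its promoter window by itself was higher at Nons day 4. These 8 differences share the 1 day 0 library. Tet2, a dioxygenase that oxidises methylcytosine, went from 8.26 to 2.52 points (-5.74 ± 1.57, 36 windows) and was at 3.83 points in the knockdown at day 4. Tfcp2l1 went from 4.91 to 0.83 points (-4.08 ± 1.84, 33 windows), with -0.16 points in the knockdown at day 4. Prdm14, a repressor of the differentiation programme, went from 9.52 to 5.19 points (-4.32 ± 2.54, 13 windows).

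Not all pluripotency loci shared this. Pou5f1 was at 11.0 points at day 0 and 11.6 points at Nons day 4, and Nanog at 5.95 and 5.46 points, differences within their SEs over windows of 3.83 and 2.09 points. Utf1 went the other way, from 2.61 to 7.62 points, as did Dppa3, from 3.02 to 7.64 points (4.62 ± 3.40, 9 windows). Over all 24 naive loci 10 were above 0 and the median was -0.44 points, against -0.12 points over all loci. It was -1.29 points for flanks of 50 kb and 0.41 points after quantile normalization, with 14 of 24 above 0, so the direction of the list as a whole was not settled.

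The formative loci were mostly higher at day 4. Of 19, 15 had a difference above 0 against 47.6% of all loci, and the median was 1.98 points. It was 1.15 points for flanks of 50 kb and 2.44 points after quantile normalization. Only 3 of the 19 lay above 0 by more than 2 SE over windows, against 4.21% of all loci. Grhl2, a grainyhead factor of epithelial and primed-state enhancers, went from -0.32 to 3.77 points (4.09 ± 1.13, 63 windows). It stayed between 1.59 and 4.95 points in the other 7 libraries, all above its day 0 value. The members named here were also chosen after their values were seen, which favours a low day 0 value. Every difference shares the 1 day 0 library, so the other libraries are not separate checks. Otx2 went from 2.84 to 8.32 points (5.48 ± 2.32, 14 windows) and stood at 9.01 points in the knockdown at day 4. Sfrp2 went from -1.51 to 3.92 points (5.43 ± 2.23, 12 windows), Zic2 from 6.37 to 11.6 points (5.23 ± 2.91, 11 windows) and Fgf15 from 2.25 to 6.70 points (4.45 ± 2.71, 12 windows). The de novo methyltransferases had smaller differences, 2.57 ± 1.5 points for Dnmt3b (27 windows) and 1.98 ± 1.20 points for Dnmt3a (63 windows). Foxd3 had the lowest difference of the list, -6.02 ± 5.53 points over 9 windows.

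**Figure D3:**
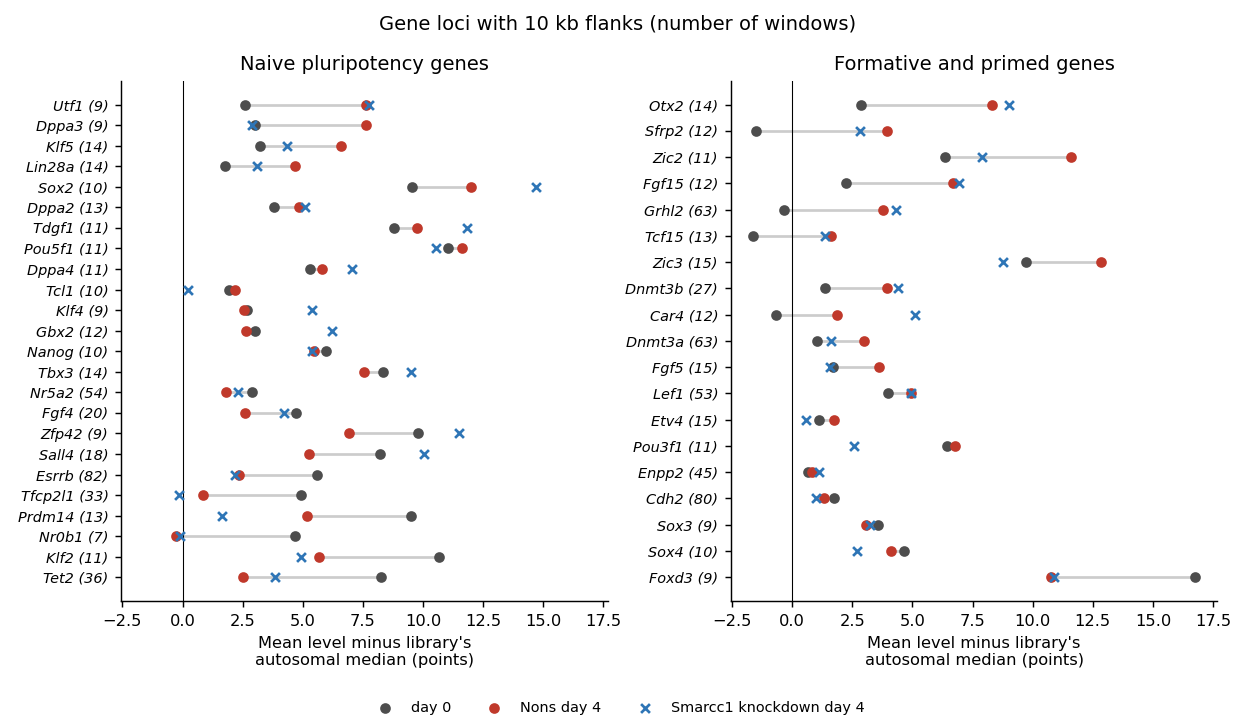
Mean level of each gene with 10 kb flanks minus the library's autosomal median (points, horizontal axis) at day 0 (grey), Nons day 4 (red) and in the Smarcc1 knockdown at day 4 (blue crosses), for naive genes (left) and formative and primed genes (right), with the number of windows beside each name and genes ordered by the difference. Esrrb, Tfcp2l1 and Tet2 lie higher at day 0 than in both day 4 libraries, and Otx2, Grhl2 and Sfrp2 lie lower.

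Genes that respond to 2i and LIF themselves, which include targets of the MEK and GSK3 inhibitors, showed large differences in single windows. Sp5, a Wnt target, went from 71.9% to 18.8% (-55.7 points) and stood between 8.51% and 41.2% in all later libraries. Dusp4, a phosphatase of the MAP kinase pathway, went from 39.7% to 27.9% (-14.4 points). Dusp6, another of that family, went from 0% to 31.5% (28.9 points) and Axin2, a negative regulator of Wnt signalling, from 6.06% to 25.6% (16.8 points). Of 23 windows 6 rose and 5 fell, and the list median of 2.62 points became -0.84 points with the neighbouring windows and -0.09 points over loci.

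Lineage genes gave no common direction. At the mesoderm gene Eomes the promoter went from 22.7% to 10.2% (-15.2 points) and at Msgn1 from 28.3% to 18.4%, whereas T (Brachyury) went from 8.70% to 25.3% (13.9 points) and Tal1 from 13.8% to 31.0%. The Eomes window was at 23.0% in the knockdown at day 4. Its centred difference at Nons day 4 was -0.29 points with the neighbouring windows and 2.01 points over the locus. Mixl1 was nearly level at -0.12 points. Of 18 mesoderm windows 6 rose and 5 fell, with a median of -3.42 points for windows and 1.08 points for loci. In the endoderm list of 14, Foxa1 (11.5% to 37.7%) and Sox7 (10% to 35.4%) rose past 10 points and Cxcr4 (40.7% to 11.8%) fell. Sox17 had 5.87 points and Gata6 -0.44 points. In the neuroectoderm list of 18, 7 rose and 3 fell, led by Neurod1 (11.6% to 38.7%), Msx1 (2.33% to 26.4%), En2 (32.4% to 4.86%) and Neurog1 (28.8% to 11.3%). Sox1 had -4.52 points and Pax6 -1.34 points, and the list median of 5.27 points was -0.11 points over loci.

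Markers of other cell types, which a culture could hold beside mESC derivatives, were read in the same way. Of 14 trophoblast markers 3 rose and 3 fell, with Elf5 (25% to 5.63%) and Tfap2c (39.0% to 26.6%) the largest falls and Esx1 (8.20% to 24.3%) and Tead4 (14.3% to 28.7%) the largest rises. Of 14 fibroblast markers 2 rose, Snai2 (12.8% to 40.5%) and Fn1 (9.09% to 24.3%), and Vim fell (45.8% to 27.8%). The fibroblast median was -4.92 points for promoter windows and 1.28 points for loci. Accessibility of a promoter does not show that a gene was expressed, so these values do not measure the share of any cell type.

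Replication-dependent histone genes, which sit in clusters and are transcribed in S phase, had the highest locus median of the 26 lists. Their promoters went from a median of 28.04% to 35.5%, a centred difference of 6.99 points, and 20 of 50 windows rose by 10 points or more against 16.7% of all promoters, while 6 fell. The ratio of medians was 1.27 against 1.26 for all promoters, and the median change in percentile rank was 1.56 against 2.45. Of the 50 windows 40 lay on chromosome 13, where most of these genes form 1 cluster. Hist1h1a, a linker histone gene, went from 2.78% to 50.9% (45.4 points) and was at 47.7% in the knockdown at day 4, and Hist1h3e went from 22.0% to 63.1% (38.4 points). The window shared by Hist1h2ah and Hist1h2bk went from 65.9% to 43.4%. Over loci the median was 4.88 points, with 56 of 67 above 0, and 2.77 points without the promoter windows. Neighbouring loci share windows and are not separate measurements. The median centred level of the histone loci was 10.03 points at day 0, 15.1 points at Nons day 4 and 10.8 points in the knockdown at day 4, so the second day 4 library lay near day 0.

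Promoters of cytosolic ribosomal proteins had a median of 4.55 points, and 30 of 76 rose while 10 fell, against 16.7% and 13.2% of all promoters. Of their windows 73.7% were CpG-rich, a class in which 26.8% rose and 17.7% fell. The median was 1.53 points with the neighbouring windows and 0.87 points over loci. Rpl15 (9.38% to 41.5%) and Rps13 (5.56% to 33.3%) had the largest rises, and Rpsa (63.6% to 27.7%) and Rpl10 (45.7% to 19.8%) the largest falls. Respiratory chain genes, also widely expressed, had a median of 0.84 points, next to that of all promoters, which turned negative on a log2 scale (-0.06). Of their 92 windows 19 rose, led by Uqcrq (11.8% to 52.9%) and Sdhd (5.26% to 39.4%), and 12 fell, led by Uqcrh (92.3% to 35.1%) and Ndufs8 (62.1% to 27.1%).

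Targets of p53, the factor activated by DNA damage and other stress, had the highest median of promoter windows, 9.33 points over 15 windows. Gadd45a went from 0% to 54.9% (52.2 points) and was at 30.2% in the knockdown at day 4, and Sesn2, which restrains mTOR, went from 5.45% to 36.9% (28.8 points). Trp53inp1 (27.3% to 13.6%) and the death receptor gene Fas (24.5% to 15.5%) fell past 10 points. In all 7 rose and 2 fell, against 16.7% and 13.2% of all promoters. Of their windows 73.3% were CpG-rich, a class in which 26.8% rose and 17.7% fell. The median was 5.97 points when windows at 0% or 100% in either library were left out. It was 2.52 points with the neighbouring windows, 1.74 points with promoters defined by a window centre within 1 kb of the start and 1.05 points over loci. Interferon-response genes, read because the day 4 cells had been transduced, had a median of 0.22 points over 18 windows. It was 2.29 points with promoters defined by a window centre within 1 kb, 2.55 points as a mean and 1.37 points over loci, 12 of 18 of them above 0. The called windows were led by Irf1 (15% to 36.2%) and Oasl1 (9.09% to 28.2%) upwards, and Ifit2 (26.0% to 11.6%) was the fall. The part of transduction in either list was not tested.

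Germline genes, many of them held silent by promoter DNA methylation in somatic cells, had a median of 7.17 points over 18 windows, with 6 rises and 0 falls against 16.7% and 13.2% of all promoters. The largest were Sycp1, of the synaptonemal complex (5.63% to 25.4%), and Stk31 (14.04% to 29.9%). The median was 2.68 points with the neighbouring windows and 0.59 points over loci. Of 25 imprinted windows 7 rose and 2 fell, with a median of 1.77 points. The window that Peg3 and Usp29 share, at the divergent start of both genes, went from 18.2% to 56.5% (35.6 points), and Mkrn3 (37.9% to 25.4%) and Peg10 (28.4% to 18.5%) fell.

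Chromatin regulators moved in both directions. Of 28 promoters of BAF complex genes 10 rose and 10 fell, against 16.7% and 13.2% of all promoters and 26.8% and 17.7% of CpG-rich ones, and 85.7% of these windows were CpG-rich. Among them were Smarca2 (17.2% to 44.2%) and Actl6a (12.5% to 36.8%) upwards and Brd7 (44.4% to 16.2%) and Bcl7c (36.2% to 15.4%) downwards. Of 38 promoters of the Polycomb and DNA methylation machinery 6 rose, led by Pcgf3 (16.3% to 51.8%) and Kdm2b (0% to 34.3%), and 8 fell, led by Pcgf2 (50% to 21.1%) and Rnf2 (47.8% to 25.7%). The BAF median was -3.63 points and the Polycomb median 1.27 points, and the latter turned negative on a log2 scale (-0.06). Over loci they were -0.0043 and 0.58 points.

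Of the 36 promoter windows of the Hox clusters, Polycomb targets in mESCs, 6 rose and 8 fell, and the median was 0.33 points, with a negative sign on a log2 scale (-0.03). Hoxd9 (5.88% to 26.8%) and Hoxa2 (0% to 20%) rose, and Hoxa4 (36.6% to 10.9%) and Hoxa6 (30% to 15%) fell. Clustered protocadherins, whose promoters are chosen at random in neurons, had a median of 1.91 points over 57 windows, with 11 rises and 6 falls. Pcdhb8 (0% to 25.4%) and Pcdhgb6 (12.3% to 35.3%) rose most and Pcdhga5 (28.2% to 9.17%) and Pcdhga8 (37.8% to 20.6%) fell most. Of the 13 windows of the list of X inactivation centre genes and other X-linked genes, 3 rose (among them Nap1l2 and Zcchc13) and 3 fell (among them Hprt, 70.0% to 23.5%). Xist, the RNA that coats the inactive X, was at 22.9% and 23.9% (-1.67 points) and its antisense gene Tsix at 13.6% and 11.3% (-4.92 points).

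The receptor, keratin and cytochrome P450 families, in each of which at most 8.60% of windows were CpG-rich, stayed near the genome-wide shift. Promoters of 1076 olfactory receptor windows had a median of -0.17 points, with 74 rises and 92 falls, and 316 vomeronasal windows had -1.09 points. The extremes of these families, such as Olfr632 (41.9% to 9.60%), Olfr813, Olfr937 and Olfr1047, or Vmn2r36, Vmn1r15, Vmn2r48 and Vmn1r100, lay in windows of up to 43603 bases, and reads of near-identical receptor genes may be placed with error. Keratin and keratin-associated genes had 0.10 points over 109 windows, with Krtap9-3 and Krtap27-1 the largest rises and Krt42 and Krt32 the largest falls. Cytochrome P450 genes had 0.48 points over 93 windows, with Cyp7b1 and Cyp4f39 the largest rises and Cyp2c23 and Cyp4a29 the largest falls. Zfp zinc-finger genes had 0.97 points over 380 windows, from Zfp142 (14.8% to 67.2%) and Zfp280d (23.5% to 66.1%) down to Zfp1 (48.9% to 14.6%) and Zfp493 (55.0% to 22.2%). Ligands of the Wnt, Fgf and Bmp families had -0.55 points over 50 windows, with Bmp6 (7.14% to 56.5%) and Wnt5b upwards and Bmp8a (44.1% to 17.7%) and Fgf13 downwards. These last lists were not CpG-poor. Of the zinc-finger windows 35.5% were CpG-rich and of the ligand windows 50%, against 26.0% of all promoter windows. Of the zinc-finger windows 22.1% rose and 15% fell by 10 points or more. The signs of the keratin, zinc-finger and ligand medians changed in at least 1 other scaling, and those of the receptor and P450 families did not.

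**Figure D4:**
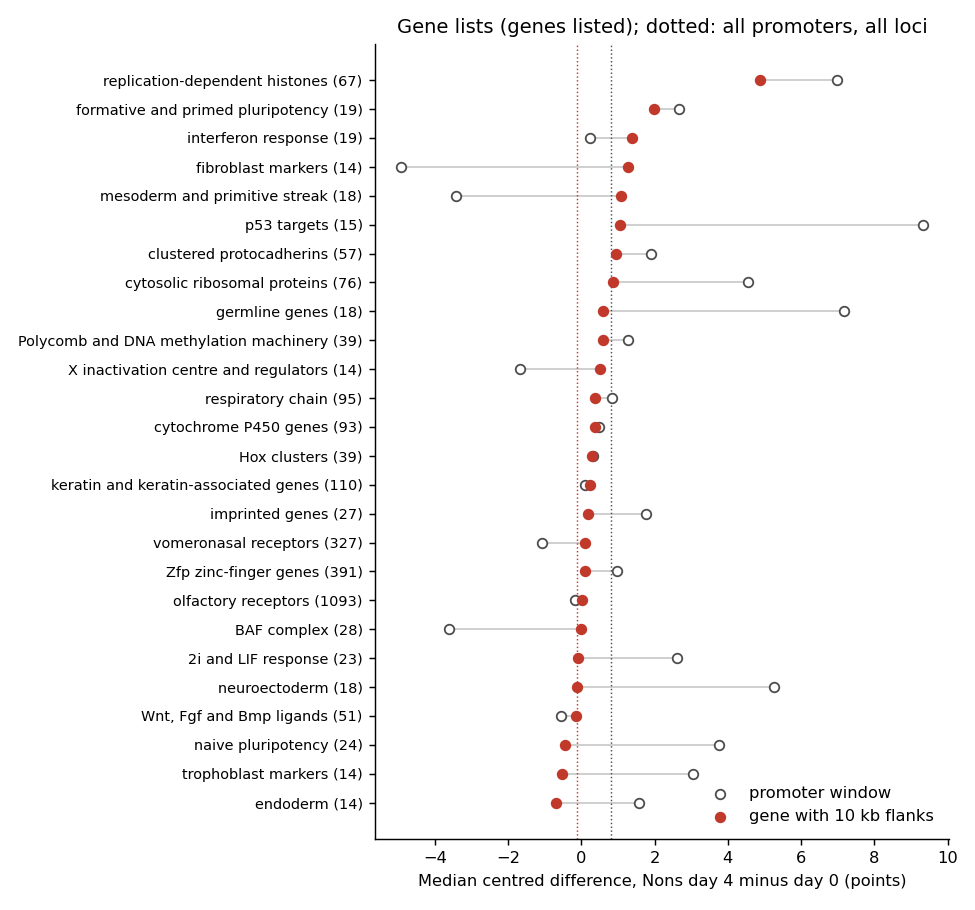
Median centred difference (points, horizontal axis) of 26 gene lists, for the promoter window of each gene (open circles) and for the mean over each gene with 10 kb flanks (red), with the number of genes listed beside the name and dotted lines at the medians of all promoter windows (0.81 points) and of all loci (-0.12 points). The red points lie closer together than the open ones, and histone genes (4.88 points) and formative genes (1.98 points) have the highest red values.

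Over all 19716 protein-coding promoter windows with values above 0 in both libraries, the largest centred rises were at Tspan17, Chpf2, Zbtb44, Fbxo5, Zbtb2, Lmcd1, Zfp142 and Dazap2, between 49.2 and 63.0 points. Tspan17, a tetraspanin gene, went from 3.23% to 68.9% and stood at 50% in the knockdown at day 4. Fbxo5, which encodes the mitotic inhibitor Emi1, went from 3.12% to 60.0%, and Lmcd1, a LIM domain gene, from 7.45% to 63.8%. Chpf2 went from 11.7% to 76.3% but was at 13.8% in the knockdown at day 4, close to day 0.

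The largest falls were at Whrn, Uqcrh, Scmh1, Sp5, Epha6, Fbxo21, Sez6l and Dusp5, between -72.4 and -49.7 points. Whrn, a scaffold protein of hair cell stereocilia, went from 90.0% to 20.2%, and the window shared by Uqcrh and Lrrc41 from 92.3% to 35.1%. Scmh1, a Polycomb group gene, went from 64.3% to 10.4%, and was at 54.0% at Nons day 5. These windows were picked for their extreme values, so the figures are descriptions of the 2 libraries.

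To ask which promoters did not rest on the Nons day 4 library alone, windows were ranked by the weakest of their centred differences from day 0 at Nons day 4, in the knockdown at day 4 and at Nons day 5, which all share the day 0 library. The highest were Tspan17, Rab40c, Hist1h1a, Skil and Dazap2. Rab40c was at 0% at day 0 and at 60.0%, 45.3% and 62.0% in these 3 libraries. Skil, a repressor of TGF-beta signalling, was at 11.8% at day 0 and at 59.1%, 74.1% and 64.9%. The lowest were Whrn, Uqcrh, Fbxo21, Sp5 and Sez6l. Fbxo21, of a ubiquitin ligase, was at 72.7% at day 0 and at 22.4%, 8.06% and 7.14%. The 1 day 0 value enters all 3 differences of a window.

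Whole gene bodies hold more windows and were summarised for the 4940 protein-coding genes with 20 windows or more, again a measure chosen after seeing the data. The SD of the centred difference over genes was 1.5 points, against a median SE over windows of 1.25 points, so most of the spread was of the size of the scatter within genes. A rise of 3 points or more was seen in 75 genes (1.52%) and a fall as large in 212 (4.29%). These values are means, while the libraries were centred on medians. The median over genes was -0.44 points and the mean over all autosomal windows -0.20 points, so equal cuts around 0 favoured falls. After quantile normalization the excess of falls was smaller, with 112 rises and 140 falls. The 10 highest and 10 lowest of the 2312 genes with 40 windows or more are described.

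Pde11a, a phosphodiesterase that hydrolyses cyclic nucleotides (chr2:75989141-76338774), had a centred level of 4.33 points at day 0 and -0.38 points at Nons day 4, a difference of -4.71 ± 0.65 points over 126 windows. It stood between -0.43 and 1.05 points in the other 7 libraries. Frmpd1 had -5.33 ± 1.04 points (43 windows), Mbp, the myelin basic protein gene, -4.63 ± 1.35 points (50 windows), and Slc44a1, a choline transporter gene, -4.15 ± 1.02 points (63 windows). Slc12a7, Ttc39b, Map2k6, Xpr1, Atp2b4 and Akap2 followed, between -4.08 and -3.70 points. These genes were picked for their difference, which favours a high day 0 and a low Nons day 4 value.

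Among the rises Grhl2 was first, with -0.36 points at day 0, 4.21 points at Nons day 4 and a difference of 4.56 ± 1.18 points over 54 windows (chr15:37233036-37363569). Tle4, a Groucho co-repressor gene, went from 1.79 to 5.51 points (3.72 ± 1.15, 51 windows) and was at 4.60 points in the knockdown at day 4. Bcor, of a variant Polycomb complex and X-linked, went from 3.18 to 6.83 points (3.65 ± 1.09, 59 windows) and was at 7.05 points there. Arhgap31 (3.73 points), by contrast, was at 0.68 points in the knockdown at day 4 against -0.68 points at day 0. Pou2f2, Sufu, Rnf144b, Cnih3, Actn1 and Arhgap32 followed, between 3.38 and 2.86 points. These genes too were picked for their difference, and day 0 was the lowest of the 9 libraries in 9 of the 10. The body of Grhl2 lies within the Grhl2 locus described above and shares its windows.

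**Figure D5:**
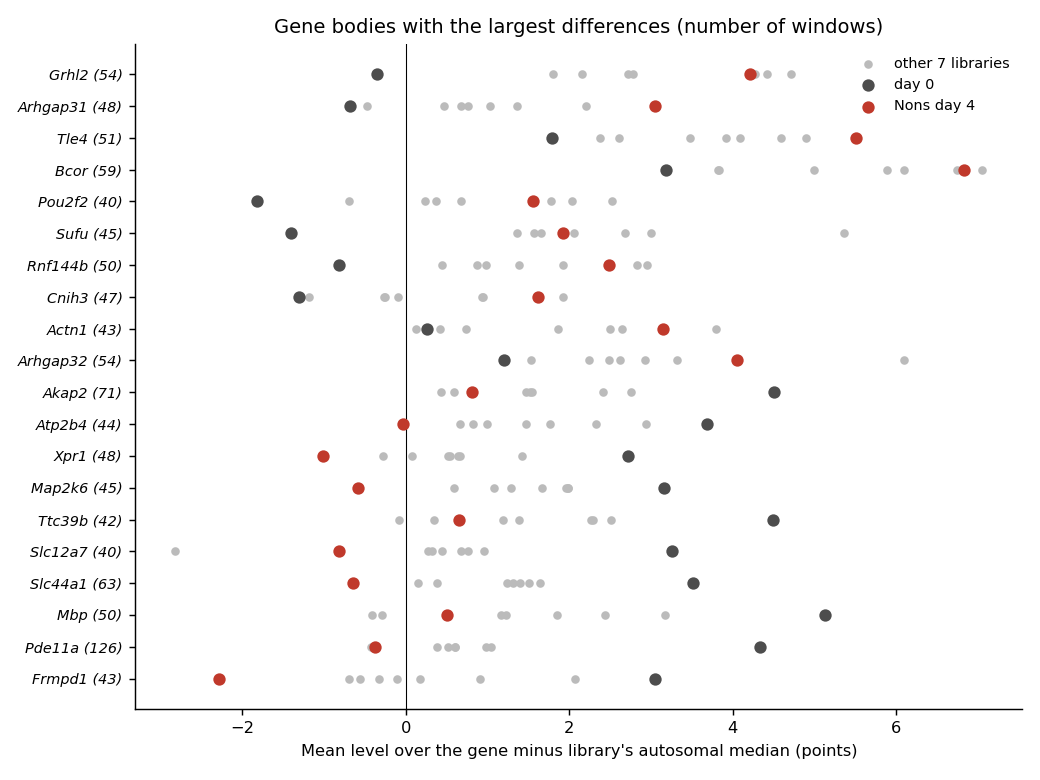
Mean level over the gene minus the library's autosomal median (points, horizontal axis) for the 10 genes with the largest rises (top) and the 10 with the largest falls (bottom) among those with 40 windows or more, at day 0 (dark grey), Nons day 4 (red) and in the other 7 libraries (light grey), with the number of windows beside each name. The genes were picked for the distance between the dark and the red points, and at Pde11a the other 7 libraries lie between -0.43 and 1.05 points.

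At the scale of 1 Mb, 2548 bins with 100 windows or more had an SD of 0.61 points in the centred difference, against a median SE over the windows of a bin of 0.44 points. The 5th and 95th percentiles were -1.16 and 0.82 points. Across bins, which share their libraries, the levels of the 2 libraries had a Pearson correlation of 0.68. The mean over all bins was -0.16 points. Across bins the Spearman correlation of the centred difference was 0.35 with window length, -0.33 with GC content and -0.19 with gene number. The Pearson correlation with gene number was -0.03. By gene number, the most gene-poor bins had the highest centred differences, and the other groups lay near the mean over bins. In 4 groups of 637 bins by gene number, the group with 0 to 2 gene starts had a median of 0.07 points, and the others had -0.18, -0.28 and -0.21 points with rising gene number. At day 0 the levels of the 4 groups were 0.35, 0.58, 0.96 and 1.17 points above the autosomal median and at Nons day 4 they were 0.43, 0.43, 0.59 and 0.95 points. The difference between gene-rich and gene-poor bins was therefore larger at day 0. GC content rose with gene number, from 38.2% to 45.7%, and the groups differed less after quantile normalization (0.20, -0.02, -0.08 and 0.04 points).

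The 5 lowest bins held genes. Bin chr2:76000001-77000000, with Pde11a and Ttn, had -2.26 ± 0.39 points (SE, 362 windows), and bin chr5:75000001-76000000, with the receptor tyrosine kinase genes Pdgfra, Kit and Kdr, had -2.25 ± 0.45 points (373 windows). Its level was 2.32 points at day 0, 0.07 points at Nons day 4 and 0.59 points in the knockdown at day 4. Bin chr1:133000001-134000000, with Mdm4, Sox13 and Atp2b4, had -2.23 ± 0.44 points, and those with Trpm1 and Mtmr10 on chromosome 7 and with Plxna2 and Cd34 on chromosome 1 had -2.04 and -1.99 points.

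Of the 5 highest bins 3 held no start of a protein-coding gene. They lay on chromosome 18 (18000001-19000000, 2.38 ± 0.50 points) and on chromosome 8 (6000001-7000000, 1.87 points, and 52000001-53000000, 1.74 points). The other two lay on chromosome 5 (10000001-11000000, 2.23 points, with Gm5152, Gm8857 and Gm8871) and on chromosome 12 (10000001-11000000, 1.71 points, with Nt5c1b and Rdh14). All 5 had a GC content between 36.5% and 39.7%. The bin on chromosome 18 was at 2.43 points at Nons day 5 but at 0.61 points in the knockdown at day 4, between day 0 (-0.60 points) and Nons day 4 (1.77 points).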

How the data were processed

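NOMe-seq was performed on fixed mESCs, 1 library for each condition and day. Per the labels and the study's methods, the authors used bcl2fastq, trim_galore, Bismark on mm10 with strain variants masked, and the NOMe-seq filter of coverage2cytosine. Each deposited value is a percent, the share of GpC calls that were methylated in a SeqMonk window of 200 read positions per the labels. The study's methods describe shorter windows and an enrichment normalization, and which of these apply to the deposited values is unknown. No counts were given, so the depth is unknown and no interval or detection limit was computed.

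Each library was centred on its median over autosomal windows (Python 3.11.15, numpy 2.4.6, pandas 2.3.3, scipy 1.17.1). Genes came from GENCODE M21 on GRCm38, 34568 in all, and a promoter window held the 5′ end of at least 1. CpG-rich starts had GC of at least 0.55 and an observed to expected CpG ratio of at least 0.6 over 1 kb, and CpG-poor starts a ratio under 0.4. Spread was the SD over 19 autosomes, which holds no variation between libraries. Scaling was tested on simulated data with planted differences, built from the day 0 values with added noise and a constant shift. That setting cannot show how centring acts on a shift that is not constant.

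Named genes were a set of 20 marker genes, the 2 largest rises and falls past 10 points in each list, the 8 largest each way over all promoters above 0 in both libraries, the 5 each way by the weakest of 3 differences from day 0, and the 5 highest and lowest bins. A gene that this rule names is not reported here. The comparison, the gene lists and these rules were chosen with earlier results of these data known. Locus means, gene bodies and groups by level were added after seeing the data.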

Additional observations from a re-analysis of the deposited data

Results flagged for a closer look

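2 sets of windows outside the comparison held signal. The 4 mitochondrial windows had a mean of 83.5% at day 0 and 86.8% at Nons day 4, far above the autosomal medians. The 246 windows of the Y chromosome, which female cells lack, had a median of 11.6% at day 0 and 13.2% at Nons day 4, close to the autosomal medians of 11.3% and 13.95%. A percent gives no count of reads, so the number of reads placed on the Y was not measured.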

How the results depend on the processing

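With 1 library per condition, no replicate could be left out. No paired analysis was possible because each condition had 1 library. Of 66 recomputed values of the main measures, 53 counted as the same. For values in points that meant within the spread over autosomes of the main value, and for counts within 1.5 times. On the rank, log2 and arcsine square root scales it meant the same sign and the same side of each value's own SD. The spread of bins counted as the same on those scales without a comparison. Quantile normalization raised the promoter excess from 0.81 to 1.30 points and the CpG-rich excess over CpG-poor promoters from 1.94 to 3.35 points. On the log2 ratio scale with a pseudocount of 1 these were 0.023 and 0.0091, below their SDs over autosomes of 0.03 and 0.06. Averaging each promoter window with the window on either side gave 0.45 and 0.61 points, and promoters defined by a window centre within 1 kb of the start gave a CpG-rich excess of 0.65 points. Standardising other windows to the promoters' GC content kept the promoter excess, at 0.93 points. The shift was 2.46 points by means. Promoter windows past 10 points, 5203 rises and 4112 falls, were 1126 and 1047 with neighbours averaged and 1090 and 863 past 20 points. Bins of 2 Mb had an SD of 0.49 points against 0.61. Across the 26 lists, 226 of 260 recomputed medians counted as the same and 34 as moved. For values in points, the same meant within the SE over the windows of the list, even across 0. On the other scales it meant the same sign only. Of the lists, 19 kept their sign in all 4 other scalings, and 18 kept it with neighbours averaged. Among the measures added later, the locus median of the clustered protocadherins went from 0.94 points to -0.0035 points without promoter windows. The causes were not tested. The depth is unknown, and its part in the SD of 8.07 points over windows was not measured.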
